A study of Hordeum vulgare with 21 samples.

Results

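Late germination of malting barley was examined as the change in poly-A RNA of whole grain at day 5 of germination (DoG5) against day 3 (DoG3). The libraries were taken by their labelled stage: 3 of day 5 were tested against 3 of day 3, and the 3 of day 4 (DoG4) were shown between them without entering the contrast, which makes 9 of the 21 libraries of the series. The question was which transcripts still changed in amount over the last 2 collection intervals of 24 h, after the grain had been germinating for 3 days.

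All groups were grain of Hordeum vulgare cultivar Conrad, a spring barley with 2-rowed ears bred for malting in North America, with no other genotype or agent. DoG3 and DoG4 grain was collected 3 and 4 days after the end of the steep and DoG5 grain at the end of the 120 h of germination, all at 17 °C after a steep of 38 h to 45% moisture. The other stages, used here only for the earlier course of the genes found, were dry unmalted grain (Dry), grain out of the steep (DoG0) and days 1 and 2 (DoG1, DoG2). Each stage had 3 replicates, lettered A, B and C, and the malted ones came from small-scale malting runs that each took 110 g from a single mixed lot of grain. The replicates of days 3 to 5 therefore stand for malting runs and not for crops, fields or cultivars. A p-value sets a change against a spread between replicates, which may be technical. That spread was estimated over all 7 stages together, including dry grain, which was not malted.

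In a germinating cereal grain the embryo takes up water, starts to grow roots and a shoot, and releases gibberellins to the aleurone, the living cell layer around the starchy endosperm. Aleurone and scutellum then secrete amylases, glucanases and proteases that open the cell walls and break down starch and storage protein, which the seedling takes up through the scutellum. Whole grain mixes all these tissues with growing rootlets and the shoot, so in such samples fewer cells of a type and less RNA per cell cannot be told apart. The deposited IDs came without gene names and no reference used here paired them with any, so tissue markers could not be checked, gene families could not be grouped, and genes are described by their level, course and ID. For the same reason no sequence is shown.

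The 3 DoG5 libraries held 29733605, 29135821 and 18145400 expected counts, and the 3 DoG3 libraries held 30229259, 29309577 and 28623928. Levels are given as CPM, counts scaled to a common library total. A count of 3, the smallest treated as detection, equals 0.165 CPM in the shallowest of the 9 libraries, DoG5 replicate C, and 0.0992 CPM in the deepest. The DoG5 replicates were the more variable: the median standard deviation of log2 CPM between replicates was 0.132 at DoG3, 0.106 at DoG4 and 0.214 at DoG5. It was 0.299 at Dry, which also entered the estimate of the spread. Replicates A and C of DoG5 were the least alike pair within a stage, with r = 0.969 across genes, against 0.979 to 0.987 for pairs of DoG3 libraries. On the second principal component of the 9 libraries, which held 19.3% of the variance, DoG5 replicate A stood at -42.6 and replicate C at 60.2, while the other 7 libraries lay between -18.2 and 11.2. A DoG3 library stood apart as well: on the fourth component, 12.9% of the variance, DoG3 replicate A lay at -52.2. All others lay between -5.84 and 26.4 on it. The counts of genes called in all, by at least 2-fold and at 100 CPM or more are therefore also given without each of the 6 tested libraries.

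The first component, 26.4% of the variance, ordered the libraries by day. DoG3 libraries lay at -52.4 to -20.9, DoG4 libraries at -4.45 to 13.1 and DoG5 libraries at 22.6 to 38.2, with no overlap between stages. The third component, 15.1% of the variance, set DoG4 apart from both of its neighbours. All 3 DoG4 libraries lay at -32.2 to -26.4 on it, below every DoG3 and DoG5 library.

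**Figure D1:**
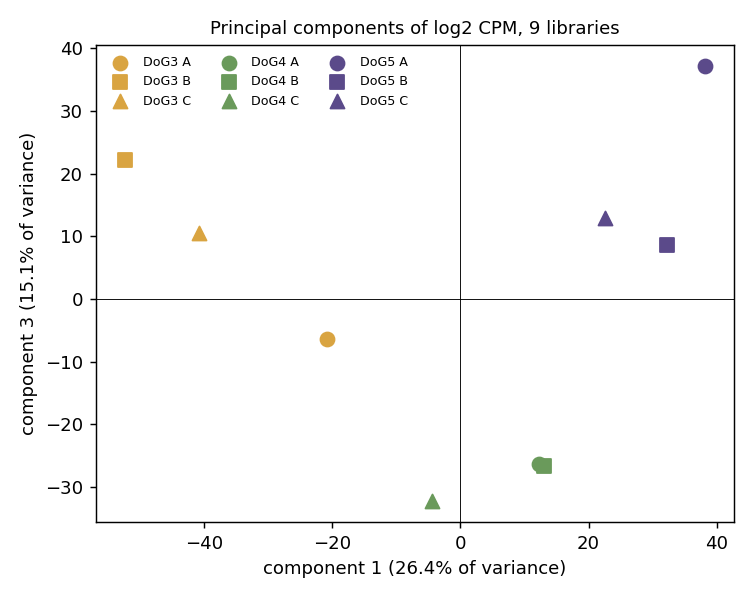
Principal components 1 and 3 of log2 CPM in the 9 libraries of days 3 to 5, in arbitrary units; colours mark the stage and symbols the replicate. Component 1 (26.4% of variance) runs from DoG3 through DoG4 to DoG5, and on component 3 (15.1%) the DoG4 libraries lie below both other stages.

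Between day 3 and day 5, 297 of 20637 tested genes changed in abundance, 1.44% of those tested, at an adjusted p under 0.05 (edgeR quasi-likelihood test on all 21 libraries, Benjamini-Hochberg adjustment). Of these, 89 were higher at DoG5 (0.431%) and 208 were lower (1.01%). Among the genes called, the rises were larger than the falls, and fewer, although their number exceeded that of falls with library sizes alone and in limma on TPM. The 89 genes that rose had a median log2 fold change of 1.20 with a median standard error of 0.26, a middle range of 0.70 to 2.03 and a highest value of 5.31. The 208 genes that fell had a median of -0.62 with a median standard error of 0.12 and a middle range of -0.84 to -0.48. A gene with a larger standard error needs a larger fold to pass, and the part of this in the larger rises was not tested. A change of at least 2-fold was found in 52 genes that rose and 34 that fell, and of at least 4-fold in 24 and 14. Without DoG5 replicate A, B or C the 2-fold counts were 19, 17 or 36 rises and 15, 12 or 17 falls, and without DoG3 replicate A, B or C they were 1, 14 or 6 rises and 8, 13 or 11 falls. DESeq2 gave 198 and 138. Among all tested genes the median log2 fold change was 0.01 and the median absolute change 0.24.

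The 3 DoG5 libraries lay wholly above or wholly below the 3 DoG3 libraries in all 297 genes, where 27.0% of all tested genes had such a separation. The same libraries chose the genes, so this is a description. At an unadjusted p under 0.05, 3665 genes differed (17.8%), 1731 of them higher and 1934 lower at DoG5. The number of calls rested on every one of the 6 libraries. Without DoG5 replicate A, B or C it was 91, 99 or 133, and without DoG3 replicate A, B or C it was 27, 55 or 49. Falls outnumbered rises in each of these 6 fits. With library sizes alone and no TMM factors rises were the majority, with 76 genes higher and 43 lower, while DESeq2 size factors in the edgeR fit gave 90 higher and 193 lower. In limma on log2(TPM + 1), which differs in unit and model as well, 230 rose and 124 fell. DESeq2 called 470 rises and 700 falls. The direction of each of the 297 genes was the same in every alternative that tested it. As the 6 libraries did not overlap by day in any of these genes, it could hardly have changed, so this adds no support.

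The calls were spread unevenly over transcript levels. Among the 2076 genes with a mean of at least 100 CPM over the 2 stages, 84 changed (4.05%), 12 higher and 72 lower at DoG5. Among the 8601 genes at 10 to 100 CPM, 35 rose and 104 fell, and at 1 to 10 CPM 32 rose and 26 fell among 6187 genes. Under 1 CPM, 10 rose and 6 fell among 3773 genes, or 0.424%. The abundant genes changed by small folds: at 100 CPM or more the median log2 fold change was 0.73 for rises, with a range of 0.47 to 1.88, and -0.54 for falls, with a range of -1.08 to -0.33. A change of 2-fold or more was seen in 5 of these 84 abundant genes, 3 higher and 2 lower at DoG5. With library sizes alone, 12 genes at 100 CPM or more rose and 7 fell, in limma on log2(TPM + 1) 17 and 20, and in DESeq2 46 and 199. Without DoG5 replicate A, B or C the counts at 100 CPM or more were 3, 4 or 9 rises and 15, 24 or 32 falls, and without DoG3 replicate A, B or C they were 1, 4 or 3 rises and 8, 8 or 13 falls.

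Large folds belonged to scarce transcripts. All 24 genes that rose at least 4-fold, and 13 of the 14 that fell as much, stayed under 10 CPM at the stage where they were higher. Over all levels, 39 of the 89 genes that rose and 27 of the 208 that fell were under 10 CPM at their higher stage. The genes that rose had a median of 20.1 CPM at DoG5 and 9.06 CPM at DoG3. The genes that fell had a median of 49.9 CPM at DoG5 and 74.8 CPM at DoG3.

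**Figure D2:**
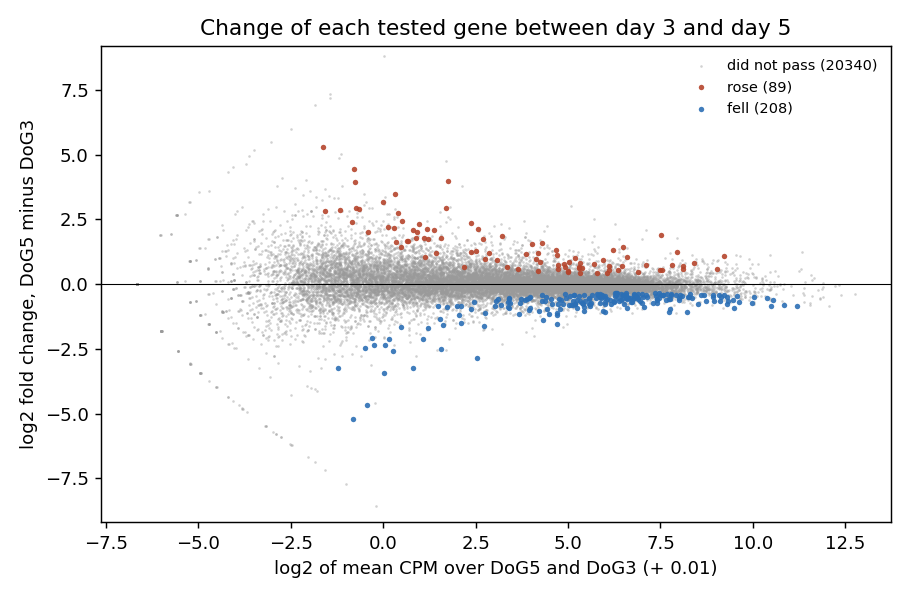
Log2 fold change of each of the 20637 tested genes, DoG5 minus DoG3, against log2 of its mean CPM over both stages plus 0.01; red points are the 89 genes that rose and blue points the 208 that fell, at an adjusted p under 0.05. Falls crowd at high level and small fold, and the largest changes in both directions sit at low level.

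For most tested genes the data bounded the change, whether or not it passed the test. The 95% interval of the log2 fold change lay wholly inside a 2-fold change in either direction for 12812 genes, or 62.1% of those tested, and inside 0.5 on the log2 scale for 5882, or 28.5%. The share bounded to under 2-fold was 88.1% at 100 CPM or more, 87.1% at 10 to 100 CPM, 52.7% at 1 to 10 CPM and 6.23% under 1 CPM. Scarce transcripts could thus have changed by 2-fold without being resolved. The median interval was 0.49 wide to each side, and for 25 genes none could be computed.

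In TPM, a level that is corrected for transcript length, the genes that rose made up 0.791%, 0.740% and 0.670% of all TPM in the 3 DoG5 libraries, against 0.361%, 0.380% and 0.368% in the DoG3 libraries. The genes that fell made up 2.75%, 2.91% and 2.76% in the DoG5 libraries, against 4.32%, 4.16% and 4.29% in the DoG3 libraries. At DoG4 the shares lay between, at 0.586% ± 0.0359 for the genes that rose and 3.40% ± 0.0955 for the genes that fell (SD, n = 3). These shares describe genes chosen on the same libraries and were not tested. At least 100 TPM was reached by 14 of the genes that rose at DoG5 and 6 at DoG3, and by 69 of the genes that fell at DoG5 and 94 at DoG3. The most abundant gene that rose averaged 1179 TPM at DoG5, and the highest DoG3 mean among the genes that fell was 2840 TPM.

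The shape of the transcript pool as a whole was measured apart from these genes. The 10 most abundant genes held 6.04% ± 0.421 of TPM at DoG5 and 6.10% ± 0.166 at DoG3, and the 100 most abundant held 23.0% ± 0.933 and 22.8% ± 0.691 (SD, n = 3 each). It took 695 ± 64.4 genes to make up 50% of TPM at DoG5 and 696 ± 34.8 at DoG3. All 3 differences were smaller than the spread between replicates (exact permutation test, two-sided, p = 1, 0.8 and 1, adjusted p = 1 for each, with 0.1 the smallest p possible with 3 against 3). DoG4 stood at 6.25% ± 0.330, 23.4% ± 0.259 and 682 ± 9.07.

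Single transcripts show the spread between libraries. The 2 IDs with the largest rise and the 2 with the largest fall are given by library, chosen among genes with at least 10 CPM at the higher stage, whole counts and no overlap. HORVU.MOREX.r3.1HG0000260 stood at 336.0, 331.3 and 189.5 CPM in the DoG5 libraries, against 50.3, 117.5 and 64.5 CPM in the DoG3 libraries. All DoG5 libraries were above all DoG3 libraries, with replicate C the lowest of DoG5 and replicate B the highest of DoG3. The log2 fold change was 1.88 with a standard error of 0.40 and an interval of 1.04 to 2.73 (edgeR, adjusted p = 0.0279). Its DoG4 libraries, at 296.5, 168.9 and 154.5 CPM, overlapped the DoG5 range and not the DoG3 range. Length-corrected, the level was 162 ± 69.9 TPM at DoG3, 448 ± 162 at DoG4 and 607 ± 159 at DoG5 (SD, n = 3 each). The transcript was nearly absent before the second day of germination, with 6, 7 and 27 counts summed over the 3 libraries at Dry, DoG0 and DoG1, and it averaged 22.0 CPM at DoG2. Without DoG3 replicate A or C, or DoG5 replicate A or B, the ID did not pass, with an edgeR adjusted p of 0.0780 to 0.132, nor in limma on log2(TPM + 0.1), with an adjusted p of 0.130.

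HORVU.MOREX.r3.2HG0101960 stood at 12.5, 18.8 and 12.3 CPM in the DoG5 libraries, against 3.49, 5.58 and 2.81 CPM in the DoG3 libraries. The groups were well apart, and the DoG4 libraries, at 9.98, 10.6 and 6.89 CPM, filled the gap between them without reaching either. The log2 fold change was 1.88 with a standard error of 0.34 and an interval of 1.15 to 2.60 (edgeR, adjusted p = 0.0198). No count was recorded for this ID in any library of Dry or DoG0, and 1 count in the libraries of DoG1 together. It averaged 0.460 CPM at DoG2 and 42.2 ± 10.4 TPM at DoG5, against 11.2 ± 3.76 TPM at DoG3 (SD, n = 3 each). Without DoG3 replicate A or C or DoG5 replicate B it did not pass, with an edgeR adjusted p of 0.0752 to 0.103.

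HORVU.MOREX.r3.3HG0255020 stood at 1.20, 0.867 and 2.21 CPM in the DoG5 libraries, against 13.3, 8.81 and 8.16 CPM in the DoG3 libraries. Every DoG5 library was far below every DoG3 library, and the log2 fold change was -2.87 with a standard error of 0.64 and an interval of -4.22 to -1.51 (edgeR, adjusted p = 0.0348). The DoG4 libraries held 8.66, 4.75 and 4.08 CPM, of which replicate A lay inside the DoG3 range. The transcript peaked early, at 52.4 ± 20.0 CPM at DoG1, and was lower at each later stage. Leaving out any 1 of the 6 libraries ended the call, with an edgeR adjusted p of 0.0573 to 0.129, and so did library sizes without TMM (0.0574) and limma on log2(TPM + 0.1) (0.0928).

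HORVU.MOREX.r3.2HG0112560 stood at 15.0, 15.8 and 9.64 CPM in the DoG5 libraries, against 41.5, 37.3 and 38.1 CPM in the DoG3 libraries. The DoG3 libraries were close together and the DoG5 libraries all lay at under 20 CPM. The log2 fold change was -1.52 with a standard error of 0.32 and an interval of -2.20 to -0.85 (edgeR, adjusted p = 0.0265). The DoG4 libraries held 29.6, 22.1 and 35.5 CPM, above all of DoG5 and below all of DoG3. The transcript stood at 994.8 ± 373 CPM in dry grain, 528.8 ± 82.3 at DoG0, 577.5 ± 241 at DoG1 and 144.6 ± 42.6 at DoG2. Leaving out any 1 of the 6 libraries took its edgeR adjusted p to between 0.0587 and 0.104. All 4 IDs kept their direction in each of the 21 other settings run, which could hardly differ because no overlap was a rule of their choice.

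**Figure D3:**
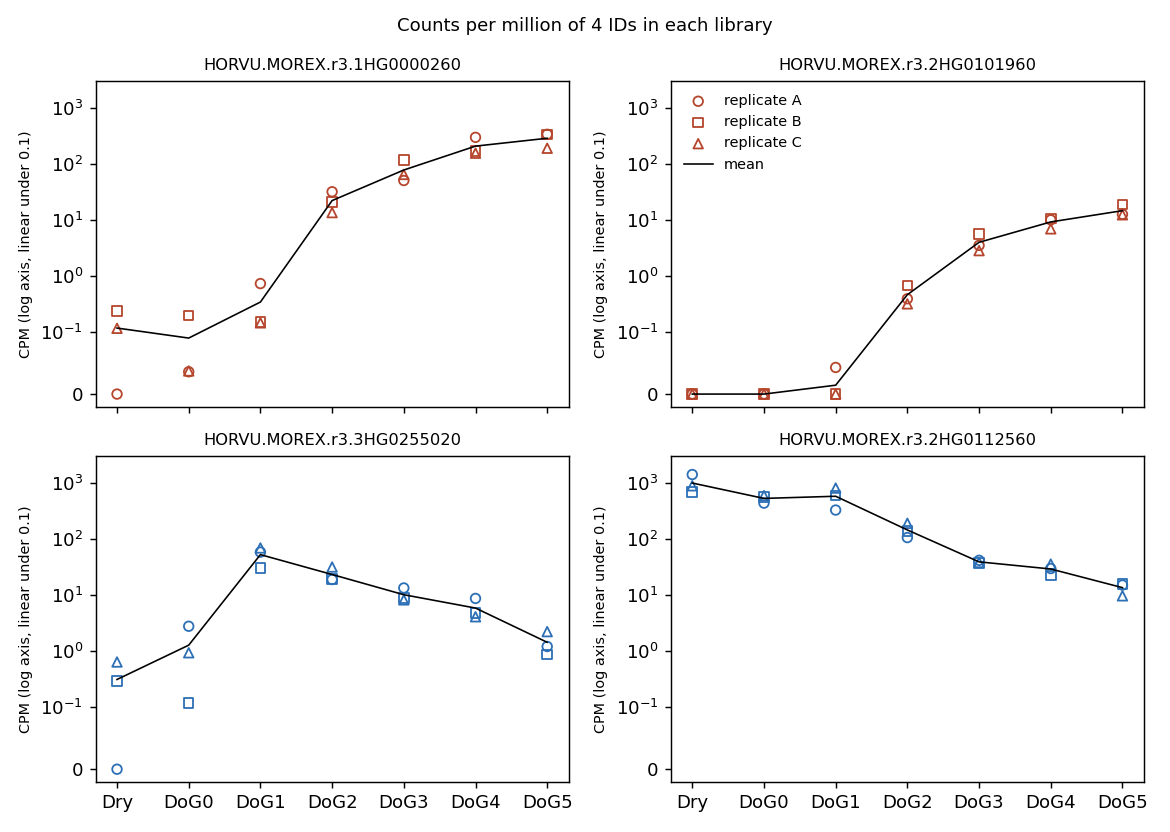
CPM of the 4 IDs in each of the 21 libraries on a log axis that is linear under 0.1; symbols mark the replicate and lines join stage means. The upper IDs climb steeply at DoG2 and are highest at DoG5, and the lower IDs peak at DoG1 or in dry grain and are at 1.43 and 13.5 CPM by DoG5.

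Day 4 lay between days 3 and 5 for nearly all the genes found. The DoG4 estimate was intermediate in 83 of the 89 genes that rose (93.3%) and in 200 of the 208 that fell (96.2%), where 46.4% of all tested genes were intermediate. The choice of genes with a large gap between DoG3 and DoG5 by itself raises this share, so it is a description. The median part of the log2 change reached by DoG4 was 0.626 for the genes that rose and 0.566 for those that fell. Given side by side with the shared libraries in mind, the genes that rose had a median log2 difference of 0.71 for DoG4 against DoG3 and 0.39 for DoG5 against DoG4. The genes that fell had medians of -0.35 and -0.25. Single days gave few calls: DoG4 against DoG3 changed 31 genes (0.150%), 3 higher (0.0145%) and 28 lower (0.136%), and DoG5 against DoG4 changed 26 (0.126%), 22 higher (0.107%) and 4 lower (0.0194%).

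The earlier stages share no library with the contrast and place the genes in the course of malting. The second day of germination changed 36.7% of all tested genes and the steep 61.2%. On the second day of germination, DoG2 against DoG1, 47 of the 89 genes that later rose were already rising (52.8%, against 19.7% of all tested genes) and 12 were falling (13.5%, against 17.0%). In the steep, DoG0 against Dry, 39 of them fell (43.8%, against 32.0%) and 10 rose (11.2%, against 29.2%). Both moves, down in the steep and up on the second day, were made by 26 of the 89 genes (29.2%), and by 11.6% of all tested genes. The 47 rising genes were 1.16% of the 4057 that rose on the second day.

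Of the 208 genes that later fell, 60 rose on the second day (28.8%, against 19.7% of all tested genes) and 36 fell (17.3%, against 17.0%). In the steep 65 of them rose (31.2%, against 29.2%) and 82 fell (39.4%, against 32.0%). Their highest stage mean was at Dry in 40 genes, DoG0 in 23, DoG1 in 62 (29.8%, against 15.7% of all tested genes), DoG2 in 67 (32.2%, against 8.49%) and DoG3 in 16. At DoG5 they stood at a median of 46.7% of that maximum, against 62.4% over all tested genes, and 19 of them (9.13%, against 5.14%) were at under 10% of it. For 102 of the 208 (49.0%), DoG5 was the lowest of all 7 stages, where this held for 11.0% of all tested genes. DoG3 and DoG5 chose these genes, so their highest stage, lowest stage and part of the maximum left are a description. The 208 genes also had a median standard error of 0.12 for DoG5 against DoG3, where all tested genes had 0.23. A gene with a smaller error passes more readily, and the part of this in the shares of both earlier steps was not tested.

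Of the genes that rose, 56 of 89 (62.9%, against 12.6% of all tested genes) were highest at DoG5 among the 7 stages, and 17 (19.1%, against 28.4%) in dry grain. A group of 22 (24.7%, against 12.6% of all tested genes) averaged under 1 CPM at each of Dry, DoG0 and DoG1. Of these, 3 reached 10 CPM at DoG5, as did 50 of the 2603 such genes among all tested. No count was recorded in dry grain for 6 of the 89 (6.74%, against 2.92% of all tested genes). Neither dry nor steeped grain held a count for 5 of the 89, and no stage up to DoG1 for 2. Over all 20637 tested genes these numbers were 243 and 38. At DoG5, 66 of the 89 genes stood above their dry-grain mean, as did 63 of the 208 that fell and 10796 of the 20637 tested genes. DoG5 also chose the genes, so these comparisons are a description.

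Relative to DoG3, the genes that rose stood at a median log2 CPM of -0.25 ± 0.09 at Dry, -0.84 ± 0.06 at DoG0 and -0.38 ± 0.02 at DoG2 (SD over 3 libraries), with their lowest medians, -1.03 to -0.94, in the 3 DoG1 libraries. They then stood at 0.67 ± 0.13 at DoG4 and 1.18 ± 0.13 at DoG5. The genes that fell stood at -0.24 ± 0.07, -0.30 ± 0.09, 0.16 ± 0.05 and 0.21 ± 0.02 at Dry to DoG2, and at -0.34 ± 0.04 and -0.63 ± 0.06 at DoG4 and DoG5. The DoG3 libraries that set the zero here also entered the choice of genes. Stage means rose at every step from DoG2 to DoG5 in 68 of the 89 genes (76.4%), against 15.7% of all tested genes, and fell at every step in 176 of the 208 (84.6%), against 16.0%. From DoG1 on the counts were 55 (61.8%, against 10.2%) and 93 (44.7%, against 9.59%). Because DoG3 and DoG5 chose the genes, these shares are a description.

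**Figure D4:**
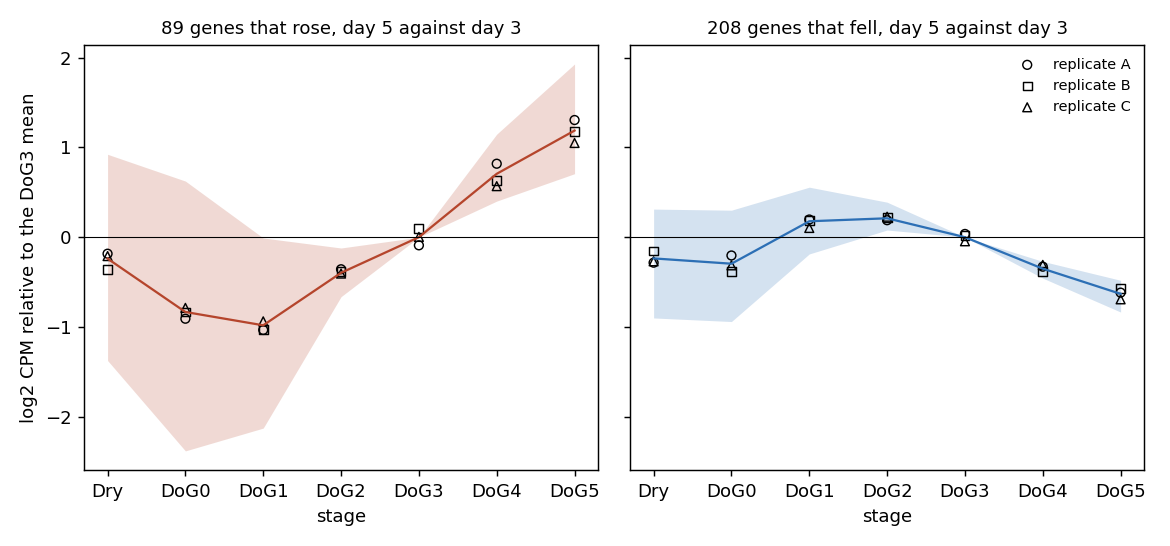
Log2 CPM relative to the DoG3 mean at each stage, for the 89 genes that rose (left) and the 208 that fell (right); the line is the median over genes of the stage mean, the band its middle range over genes and the symbols the median in each library. The genes that rose have their minimum at DoG1, and those that fell their maximum at DoG2.

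In transcript length and shared reads, which the contrast did not use, the genes found were near the tested genes as a whole. Their median relative transcript length was 0.986 for rises and 0.979 for falls, against 0.978 over all tested genes. Fractional expected counts, which mark reads shared between genes, occurred in 18.0% of rises and 20.2% of falls, against 18.5%. By the chromosome code in the ID, 4H held 18 of the 89 genes that rose (20.2%) and 18 of the 208 that fell (8.65%), where 2483 of the 20637 tested genes carry it. Chromosome code 3H held 45 of the genes that fell (21.6%, against 15.6%), and 2H held 23 (11.1%, against 16.6%). Among 20629 pairs of neighbouring tested IDs, 3 pairs rose together, 3 fell together and none moved in opposite directions. Of all tested genes, 0.431% rose and 1.01% fell. The pair counts that these shares alone would give were not computed, so nothing is drawn from the pairs.

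A separate group of transcripts departed from the steady course at day 4. A contrast was added after the principal components of the same libraries were seen. In it, 27 genes (0.131% of those tested) differed at DoG4 from the log2 midpoint of DoG3 and DoG5 (edgeR, adjusted p under 0.05). Of these, 24 were lower (0.116%) and 3 higher (0.0145%). At an unadjusted p under 0.05, 665 genes were lower and 478 higher. The 24 low genes had a median log2 difference from the midpoint of -1.26, and in 15 it was 2-fold or more. The count fell to 7, 5 and 4 without DoG4 replicate A, B or C, with none higher and all of them among the 27. It was 16, 16 and 15 without DoG3 replicate A, B or C, and 34, 13 and 21 without DoG5 replicate A, B or C. DESeq2 called 24 higher and 75 lower.

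These 24 genes were low at DoG2 as well as at DoG4. In 23 of them (95.8%) all DoG2 libraries lay below all libraries of DoG3 and DoG5, which was so for 12.2% of all tested genes, although the DoG3 and DoG5 libraries also chose the genes. In all 24 the DoG4 libraries lay below them too, as in 519 of the 20637 tested genes. The DoG4 libraries also chose the genes, so this is a description. Relative to DoG4, their median log2 level was 1.21 at Dry, -0.25 at DoG0, -0.54 at DoG1, -0.44 at DoG2, 1.12 at DoG3 and 1.45 at DoG5. The medians of days 3 and 5 were near that of dry grain, and that of day 4 was nearer to those of days 0 to 2. Single genes spread more widely in dry grain, with a middle range of 0.32 to 2.25. It was 0.74 to 1.57 at DoG3 and 0.74 to 1.83 at DoG5. The medians therefore do not show that each gene was back at its dry-grain level. In the steep 19 of the 24 fell and 3 rose, where 32.0% of all tested genes fell and 29.2% rose. HORVU.MOREX.r3.6HG0577940, chosen as an example after its values were seen, stood at 1.49, 1.89 and 1.44 CPM at DoG2, 21.3, 27.9 and 23.2 CPM at DoG3, 4.67, 3.30 and 3.95 CPM at DoG4, and 27.2, 27.4 and 33.3 CPM at DoG5. Its DoG4 libraries lay far below both neighbouring days, with a log2 difference from the midpoint of -2.74 and a standard error of 0.24 (edgeR, adjusted p = 3.9e-05). The DoG4 libraries stood apart from both neighbouring days on the third principal component, which was seen before this contrast was added. The component is therefore no second support, and the p-values come from the libraries that prompted the contrast. Its part in this result was not tested. Batches of library preparation were not given in the sources used here.

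**Figure D5:**
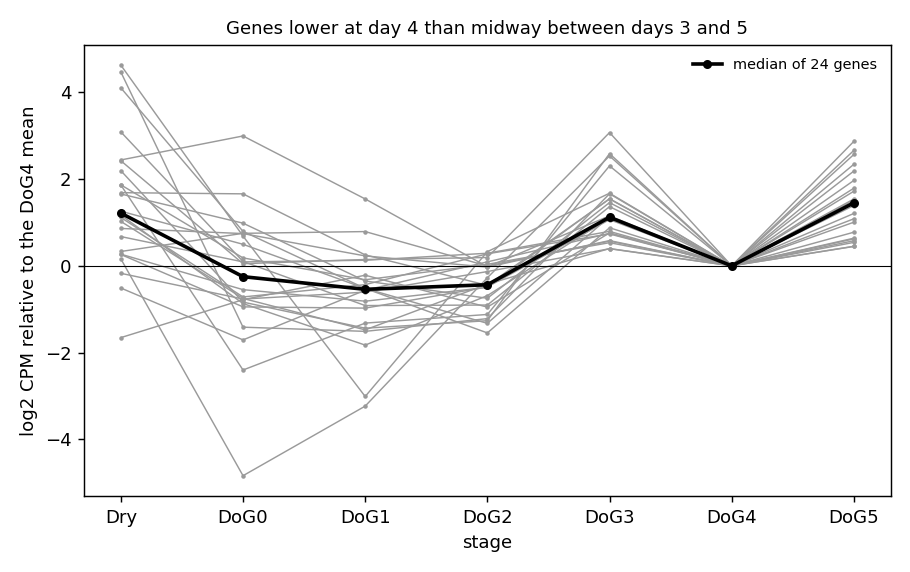
Log2 CPM relative to the DoG4 mean at each stage for the 24 genes that were lower at DoG4 than midway between DoG3 and DoG5; grey lines are genes and the black line their median. The median is 1.12 at DoG3 and 1.45 at DoG5, and -0.44 at DoG2.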

How the data were processed

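Poly-A RNA of whole grain was sequenced with a strand-keeping kit, per the labels' protocols. The authors deposited a table of expected counts, in which a read shared between genes can count in part for each, and a table of TPM, length-corrected abundances that sum to 1 total in every library. The submitters' processing notes list STAR and RSEM without versions. The build, annotation and strand setting were not given in the sources used here. Without the strand setting it is not known whether reads of overlapping antisense genes were told apart. Of 35826 IDs, 0 matched a RefSeq table of 58438 genes, so gene lists and marker lists could not be run.

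Expected counts were rounded to whole numbers, and filterByExpr by stage (minimum count 10, minimum total 15) kept 20637 genes, with at least 99.9% of each library's counts, and left out 15189. Counts of all 21 libraries, scaled by TMM, entered an edgeR 4.0.16 quasi-likelihood fit (R 4.3.3) with a mean for each of the 7 stages and a common estimate of the spread. Benjamini-Hochberg adjustment ran over all 20637 p-values, with a threshold of 0.05. Standard errors are the absolute log2 fold change over the square root of F, and 95% intervals use the t quantile at the fit's degrees of freedom. CPM use TMM-scaled library sizes, and floors of 3 counts use the library totals and cover counting error only. Principal components used log2 CPM with a prior count of 2. Relative length is expected count over TPM, scaled to the library's median.

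Total expected counts ran from 18145400 to 30229259 in the 9 libraries. Chi-square per degree of freedom within a stage ran from 11.6 to 50.8, so no pair of libraries agreed within sampling noise. Same-lettered DoG5 and DoG3 libraries deviated from their stage means with correlations of -0.05, -0.03 and 0.06, so letters were not used as a block. Named IDs had an adjusted p under 0.05, at least 10 CPM at the higher stage, no overlap and whole counts in all 6 libraries, and the 2 largest folds in each direction were taken. Members, rules and tests were chosen with earlier results of these data known, and the DoG4 midpoint contrast was added later. Alternatives were limma 3.58.1 on log2(TPM + 1) or log2(TPM + 0.1), DESeq2 1.42.0, other scaling, filters, library subsets, a replicate block, a length correction and leaving out each library. The procedure was tested on simulated data.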

Additional observations from a re-analysis of the deposited data

How the results depend on the processing

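The count of 297 genes changed between DoG5 and DoG3, 89 higher and 208 lower, moved with the choice of libraries and model. With TMM left out it was 119 (76 higher, 43 lower), and without a filter on low counts 59 genes were higher. DESeq2 called 1170 (470 higher, 700 lower). limma on log2(TPM + 1) called 230 higher and 124 lower, and on log2(TPM + 0.1) 171 in all, 78 of them lower. A fit of only the 6 tested libraries called 446, 160 of them higher, of the 9 late libraries 1626 (644 higher, 982 lower) and of the 18 malted libraries 933 (380 higher, 553 lower). The sets shared with the 297 were 153, 295 and 297 genes. With the length trend removed 506 genes were called, 401 of them lower. Leaving out 1 library gave 27 to 133 calls, 3 to 46 higher and 24 to 87 lower. Other scaling by DESeq2 size factors, a 1 CPM filter, whole counts only and robust empirical Bayes kept the total at 270 to 302. The cause of these differences was not tested.

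Letters did not pair the libraries by the correlation of their deviations. With the letter as a replicate block in all 21 libraries 174 genes were called (46 higher, 128 lower), and in the 6 libraries alone 227 (91 higher, 136 lower). Of the 297 genes 170 were among the 174 and 82 among the 227. All 4 named IDs kept their call in both.

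For the DoG4 midpoint, 27 genes (3 higher, 24 lower), DESeq2 called 99 (24 higher, 75 lower), limma on log2(TPM + 1) 10 higher, and leaving out 1 library gave 4 to 34, with 0 to 4 higher and 4 to 30 lower.

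Differences of the transcript pool, none past its test, changed sign. The share of the 10 most abundant genes differed by 0.0262 percentage points with the same genes taken in every library, and by -0.259 to 0.160 with 1 library left out. The share of the 100 most abundant differed by -1.42 on expected counts, -0.0767 with the same genes, and -0.315 to 0.614 with 1 library left out. The number of genes making up 50% differed by 62 on expected counts and by -37.3 to 24.7 with 1 library left out. The number of genes bounded to under 2-fold ran from 11865 to 14071, and the share of the genes found that was intermediate at DoG4 from 90.0% to 96.6%, in the alternatives run for them. Intervals were widest for genes under 1 CPM, where few excluded a 2-fold change; the part of depth in this was not tested.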
